A study of Mus musculus with 4 samples.

Results

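Semaphorins, plexins and neuropilins form a guidance system of ligands and receptors. The genes described here were taken by symbol, as all members of semaphorin classes 3 to 7, the A, B, C and D plexins and both neuropilins that had a probe set with a single gene symbol in the platform annotation. There were 31 such genes among the 18194 with a single symbol on the array, namely 20 semaphorins, 9 plexins and 2 neuropilins, read by 78 probe sets. Each gene was represented by the probe set with the highest mean over the 4 arrays. Of the 31, 29 had a mean signal above the filter on dim probe sets and entered a test over 12740 genes, and Sema3b and Plxnb3 did not.

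Semaphorins are secreted or membrane-bound ligands that steer growing axons and migrating cells, most often by repulsion. Plexins are their transmembrane receptors and pass the signal to small GTPases and the cytoskeleton. Class 3 semaphorins are secreted, and most need a neuropilin as the binding partner of an A plexin. The membrane-bound classes 4 to 7 bind plexins directly. In the spinal cord this system is known for guiding commissural axons, including those of dorsal interneurons, out of the floor plate and along the cord.

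The arrays compared 2 populations of GFP-sorted cells, sorted from neural tubes of E10.5 mouse embryos, on a mixed background of B6SJLF1 and ICR mice. In Atoh1BAC-GFP embryos a bacterial artificial chromosome with the Atoh1 locus drives GFP in the Atoh1-derived cells of dorsal interneuron 1 (dI1), and in dNeurog1-GFP embryos a Neurog1 enhancer drives GFP in the dorsal cells of dorsal interneuron 2 (dI2). Each population had 2 arrays from biological replicates, and the tissue was taken from the forelimb to the hindlimb level. The labels call the cells GFP sorted and do not state outright that the GFP-positive fraction was hybridised. The GFP reporter decides which cells were collected, so each population holds whatever cells carried GFP at the time of the sort. In these bulk samples, fewer cells of a type and less RNA per cell cannot be told apart.

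Signals are given on a common scale, on which the trimmed mean of each array is 500. As deposited, that trimmed mean was 250 on both replicate 1 arrays and 500 on both replicate 2 arrays, so each scaling target held 1 array of each population. Differences are therefore also given within each replicate number, and tests are given without and with a block for that number. The sorted populations differed in the genes that name them: Atoh1 had signals of 21412 and 19675 on the Atoh1-GFP arrays against 1771 and 1861 on the dNeurog1-GFP arrays, and Neurog1 had 172 and 176 against 1388 and 2469. Of 12740 genes, 28 passed an adjusted p of 0.05 in limma without the block and 829 with it. Without the block 1094 genes (8.59%) had an unadjusted p under 0.05. On the common scale the median over all probe sets was 138 and 76.0 on the Atoh1-GFP arrays against 115 and 75.4 on the dNeurog1-GFP arrays, so dim probe sets read higher on the replicate 1 arrays.

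Sema7a, the membrane-anchored class 7 semaphorin, was 5.86 and 6.07 times higher in Atoh1-GFP than in dNeurog1-GFP cells within the replicate numbers and was the 1 gene of the family that passed the test without the block. With the block, Sema3f, Sema6c, Sema6d, the neuropilin Nrp2 and the plexin Plxna1 were also higher in Atoh1-GFP cells, and Sema3c and Sema5b were lower. Without the block 1 of 29 genes passed, against 0.22% of all genes tested (0.126% higher and 0.0942% lower). With the block 8 of 29 passed, against 6.51% of all genes: 6 were higher (2.78% of all genes were) and 2 lower (3.73%). On log2(signal + 32), 4 of the 29 genes differed at least 2-fold in the same direction within both replicate numbers: Sema7a, Sema3f, Nrp2 and Sema3c. The share over all genes was 2.26% (1.11% higher and 1.15% lower). By plain signal ratios, as given for Sema7a above, Sema5b also did, at 2.63 and 2.04 times lower in Atoh1-GFP cells. The arrays of the populations did not overlap for 21 of the 29 genes, with 14 higher and 7 lower in the Atoh1-GFP population, against 34.7% of all genes (15.9% higher and 18.8% lower). Throughout, the log2 difference is the Atoh1-GFP value less the dNeurog1-GFP value on log2(signal + 32), which understates the change of dim genes.

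**Figure D1:**
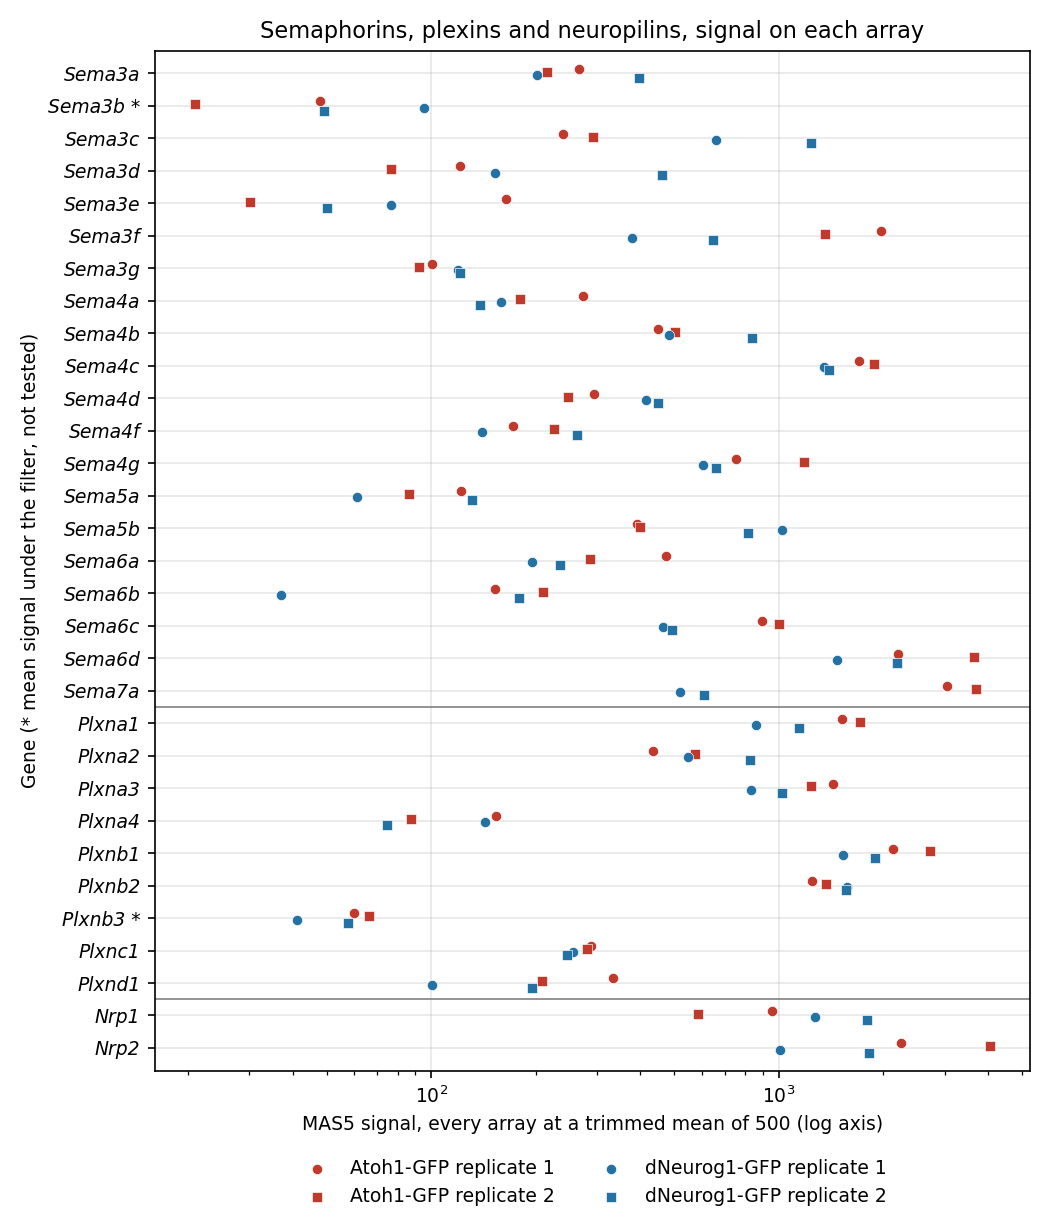
MAS5 signal of each of the 31 genes on the 4 arrays, on a log axis, with every array at a trimmed mean of 500. Red points are Atoh1-GFP and blue points dNeurog1-GFP arrays, circles replicate 1 and squares replicate 2, and an asterisk marks the 2 genes under the filter; the Sema7a points of the populations lie farthest apart, at 3054 and 3694 against 521 and 609.

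The promoter stretches of 4 genes are shown because they carry the largest differences with a call in either direction among the members that have a single window in the promoter table. Each is the 250 bases before the RefSeq start site in GRCm38.p6, 5′ to 3′ on the strand of the gene, with every CANNTG in capitals. CANNTG is the E-box, the general site of basic helix-loop-helix factors such as Atoh1 and Neurog1, and it reads as CANNTG on both strands.
Sema7a (chr9:57939862-57940111, plus strand): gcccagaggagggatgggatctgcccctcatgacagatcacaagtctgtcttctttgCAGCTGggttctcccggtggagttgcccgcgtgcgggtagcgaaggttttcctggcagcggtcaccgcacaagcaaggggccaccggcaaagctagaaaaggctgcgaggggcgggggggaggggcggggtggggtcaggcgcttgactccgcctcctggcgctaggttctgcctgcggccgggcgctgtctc
Nrp2 (chr1:62703067-62703316, plus strand): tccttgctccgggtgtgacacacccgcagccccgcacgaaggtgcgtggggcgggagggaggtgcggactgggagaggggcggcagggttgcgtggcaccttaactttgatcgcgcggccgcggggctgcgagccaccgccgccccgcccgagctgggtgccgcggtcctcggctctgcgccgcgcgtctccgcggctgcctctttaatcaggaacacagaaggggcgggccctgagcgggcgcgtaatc
Sema3c (chr5:17574566-17574815, plus strand): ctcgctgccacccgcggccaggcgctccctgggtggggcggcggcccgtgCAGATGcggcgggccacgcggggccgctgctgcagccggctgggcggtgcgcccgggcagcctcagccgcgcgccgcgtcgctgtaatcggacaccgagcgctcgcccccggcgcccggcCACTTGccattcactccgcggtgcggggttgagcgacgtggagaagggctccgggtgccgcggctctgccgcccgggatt
Sema5b (chr16:35541112-35541361, plus strand): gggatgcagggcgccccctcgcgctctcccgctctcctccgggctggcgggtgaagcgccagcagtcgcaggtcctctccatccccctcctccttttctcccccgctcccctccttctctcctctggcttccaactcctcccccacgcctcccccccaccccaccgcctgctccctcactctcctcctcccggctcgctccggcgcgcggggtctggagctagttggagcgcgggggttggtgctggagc
Sema7a, higher in Atoh1-GFP cells, had 1 match, CAGCTG, with its first base 193 bases before the start site. Sema3c, lower in Atoh1-GFP cells, had 2 matches, CAGATG at 200 and CACTTG at 80 bases before the start. Nrp2 and Sema5b had 0 matches in these windows. CANNTG occurred in 66.2% of all 32851 windows of this length and in 19 of the 37 windows of the family, which covered 26 of its genes. CAGATG, searched on both strands, occurred in 14.4% of all windows and 2 of the 37, and CAGCTG in 13.0% and 6. CAGATG and CAGCTG are themselves forms of CANNTG. A match describes the letters of a window and is not a measured binding site.

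Sema7a is held at the cell surface by a lipid anchor and signals through Plxnc1 and beta1 integrin. Probe set 1459903_at read 3054 and 3694 on the Atoh1-GFP arrays against 521 and 609 on the dNeurog1-GFP arrays. Both Atoh1-GFP arrays were far above both dNeurog1-GFP arrays, and the arrays of a population lay close together. The log2 difference was 2.51 (2.48 within replicate 1 and 2.54 within replicate 2), with a standard error of 0.24 and a limma adjusted p of 0.020 without the block, and 0.12 and 0.0014 with it. The call without the block was lost when limma was run with no intensity trend (adjusted p = 0.16). It was also lost on signals as deposited (adjusted p = 1.0), where the 2 arrays of each population lie on different scaling targets. With the block on those signals the limma adjusted p was 8.58e-05. Leaving out each array in turn gave log2 differences from 2.37 to 2.65. A second Sema7a probe set was dim on every array, with signals from 3.95 to 16, and lay under the filter. The 2 receptors gave no call in either model. Plxnc1 had 288 and 281 against 256 and 246, which differed by 0.16 on the log2 scale (adjusted p = 0.69 with the block). Itgb1, the beta1 integrin subunit, had 1622 and 764 against 1491 and 661, a difference of 0.16 (adjusted p = 0.52 with the block).

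The secreted class 3 semaphorins went both ways. Sema3f was higher in Atoh1-GFP cells and Sema3c lower, each 3.16 times as fitted, and the median over the 6 genes tested was a log2 difference of -0.23. Sema3f (probe set 1438947_x_at), a repellent that acts mainly through Nrp2, had signals of 1972 and 1357 on the Atoh1-GFP arrays against 379 and 646 on the dNeurog1-GFP arrays. The populations did not overlap, and the gap was wider within replicate 1 (a log2 difference of 2.29) than within replicate 2 (1.04). The fitted difference was 1.66, with a standard error of 0.33 and a limma adjusted p of 0.14 without the block, and 0.29 and 0.029 with it. The probe set chosen carries the suffix of Affymetrix probe sets that may also match other transcripts, as do those chosen for Sema4a and Sema4f. The other 2 Sema3f probe sets, which lack this suffix, differed in the same direction. They did so by 2.05 and 1.63 in the first and by 2.69 and 2.09 in the second.

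Sema3c (1429348_at), a class 3 ligand with roles in vascular and neural crest patterning, had signals of 239 and 292 on the Atoh1-GFP arrays against 659 and 1234 on the dNeurog1-GFP arrays. Both dNeurog1-GFP arrays were above both Atoh1-GFP arrays, by 2.75 times within replicate 1 and 4.23 times within replicate 2. The log2 difference was -1.66 (-1.35 and -1.97 within the replicate numbers), with a standard error of 0.34 and a limma adjusted p of 0.15 without the block, and 0.21 and 0.012 with it. The second kept Sema3c probe set was dimmer (mean signal 74.8) and showed little difference, 0.04 and -0.16 within the replicate numbers. Sema3c thus rests on 1 of its 2 probe sets, and the mean of both differed by -0.86.

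Sema3d and Sema3a, further secreted repellents, differed mainly within replicate 2. Sema3d had 121 and 76.4 on the Atoh1-GFP arrays against 153 and 461 on the dNeurog1-GFP arrays. Its log2 difference was -0.27 within replicate 1 and -2.18 within replicate 2, and it did not pass (adjusted p = 0.58 without and 0.18 with the block), though it did after quantile normalization with the block (0.012). Sema3a, the classical repellent that acts through Nrp1, had 267 and 215 against 202 and 397, so the populations overlapped. Its difference was 0.35 within replicate 1 and -0.80 within replicate 2, with no call in limma (adjusted p = 1.0 without and 0.72 with the block). Its 2 kept probe sets differed in sign, and without the dNeurog1-GFP replicate 2 array its difference was 0.22 in place of -0.22. Sema3e, a ligand of Plxnd1, also went opposite ways within the replicate numbers, 0.86 and -0.40, at signals of 164 and 30.2 against 76.4 and 50.2. Sema3g, a ligand of Nrp2, had 100.4 and 92.4 against 120 and 121 and did not pass. Sema3b lay under the filter at 47.7 and 20.9 against 95.4 and 49.0.

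All 4 class 6 semaphorins, transmembrane ligands of the A plexins, had higher fitted values in Atoh1-GFP than in dNeurog1-GFP cells, with differences from 0.65 to 0.94 and a median of 0.76. With the block 2 of the 4 passed, and without it 0 did in limma, with 1, Sema6c, at an unadjusted p under 0.05. Sema6c (1451898_a_at) had signals of 893 and 998 on the Atoh1-GFP arrays against 464 and 492 on the dNeurog1-GFP arrays, a gap of close to 2 times within both replicate numbers (1.93 and 2.03). Its log2 difference was 0.94, with a standard error of 0.23 and a limma adjusted p of 0.23 without the block, and 0.15 and 0.023 with it. The second kept Sema6c probe set differed less, 0.36 and 0.16, and the mean of both differed by 0.60.

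Sema6d (1453055_at) had signals of 2207 and 3648 against 1468 and 2195, so the lower Atoh1-GFP array barely exceeded the higher dNeurog1-GFP array. Within a replicate number the ratio was 1.5 and 1.66. The log2 difference was 0.65, with a standard error of 0.32 and a limma adjusted p of 0.71 without the block, and 0.12 and 0.031 with it. Leaving out 1 array moved the difference between 0.29 (without Atoh1-GFP replicate 2) and 1.01 (without Atoh1-GFP replicate 1), and it was 0.37 without dNeurog1-GFP replicate 1. All 3 kept Sema6d probe sets differed in this direction. Sema6a had 474 and 287 against 196 and 235, and its difference of 0.70 lay mainly within replicate 1 (1.15, against 0.26), with adjusted p = 0.19 with the block. Sema6b had 153 and 209 against 36.9 and 179. Its difference of 0.81 rested on the low dNeurog1-GFP replicate 1 array, without which it was -8.97e-04.

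Among the class 5 semaphorins, transmembrane ligands with thrombospondin repeats, Sema5b was lower in Atoh1-GFP cells. Probe set 1435963_at had signals of 390 and 399 on the Atoh1-GFP arrays against 1023 and 814 on the dNeurog1-GFP arrays. The arrays of a population lay close together and the populations were well apart, by 2.63 times within replicate 1 and 2.04 times within replicate 2. The log2 difference was -1.15, with a standard error of 0.24 and a limma adjusted p of 0.16 without the block, and 0.17 and 0.019 with it. The second Sema5b probe set gave nearly the same values, -1.32 within replicate 1 and -0.94 within replicate 2. Sema5a had 122 and 86.2 against 61.3 and 131, overlapping between the populations.

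None of the 6 class 4 semaphorins, transmembrane ligands mostly of B plexins, passed with or without the block, and 1 had an unadjusted p under 0.05 without it. Their differences ran from -0.62 to 0.55 with a median of 0.20. That 1 gene was Sema4d, a Plxnb1 ligand, with 293 and 248 on the Atoh1-GFP arrays against 414 and 449 on the dNeurog1-GFP arrays (difference -0.62, limma adjusted p = 0.57 without and 0.13 with the block). Sema4c, a Plxnb2 ligand, had 1706 and 1874 against 1352 and 1397, and Sema4g 752 and 1178 against 605 and 659. In these 3 genes the arrays of the populations did not overlap. Sema4a, also without overlap, had 273 and 180 against 159 and 138, while Sema4b overlapped. Sema4f overlapped too, at 172 and 225 against 140.2 and 263, and its 2 kept probe sets differed in sign, 0.02 and -0.18. The sign of Sema4f depended on the scaling, at 0.02 on the common trimmed mean and -0.06 after quantile normalization. It was the 1 gene of the 29 whose sign changed between the 4 scalings.

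Of the neuropilins, Nrp2 was higher in Atoh1-GFP cells and Nrp1 had lower signals there without a call. Nrp2 (1435349_at), the binding partner for Sema3f, had signals of 2250 and 4052 on the Atoh1-GFP arrays against 1009 and 1818 on the dNeurog1-GFP arrays. The arrays did not overlap, and the ratio was 2.23 within both replicate numbers. The log2 difference was 1.14 (1.13 and 1.14), with a standard error of 0.38 and a limma adjusted p of 0.41 without the block, and 0.11 and 0.0067 with it. Leaving out either the Atoh1-GFP replicate 2 or the dNeurog1-GFP replicate 1 array lowered it to 0.72. All 4 Nrp2 probe sets were higher within both replicate numbers, by differences from 0.46 to 1.27. With the block, the ligand Sema3f and its binding partner Nrp2 were thus both higher in the Atoh1-GFP population.

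Nrp1 (1448943_at), the binding partner for Sema3a and Sema3c and a receptor for VEGF in vessels, had signals of 956 and 586 on the Atoh1-GFP arrays against 1276 and 1791 on the dNeurog1-GFP arrays. The arrays did not overlap, but the ratio was uneven, 1.33 times within replicate 1 and 3.06 times within replicate 2. The log2 difference was -0.98 (-0.40 and -1.56) and did not pass (standard error 0.31 and adjusted p = 0.38 without the block, against 0.27 and 0.093 with it). A call was made on signals as deposited when the block was used (adjusted p = 0.044), after quantile normalization with the block (adjusted p = 0.0039) and without the Atoh1-GFP replicate 1 array (adjusted p = 0.014). All 4 Nrp1 probe sets had larger differences within replicate 2, from -1.15 to -1.75, and 3 of the 4 were negative within replicate 1 as well. The test of Nrp1 against Nrp2 was not run, so the opposite signs are given side by side.

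**Figure D2:**
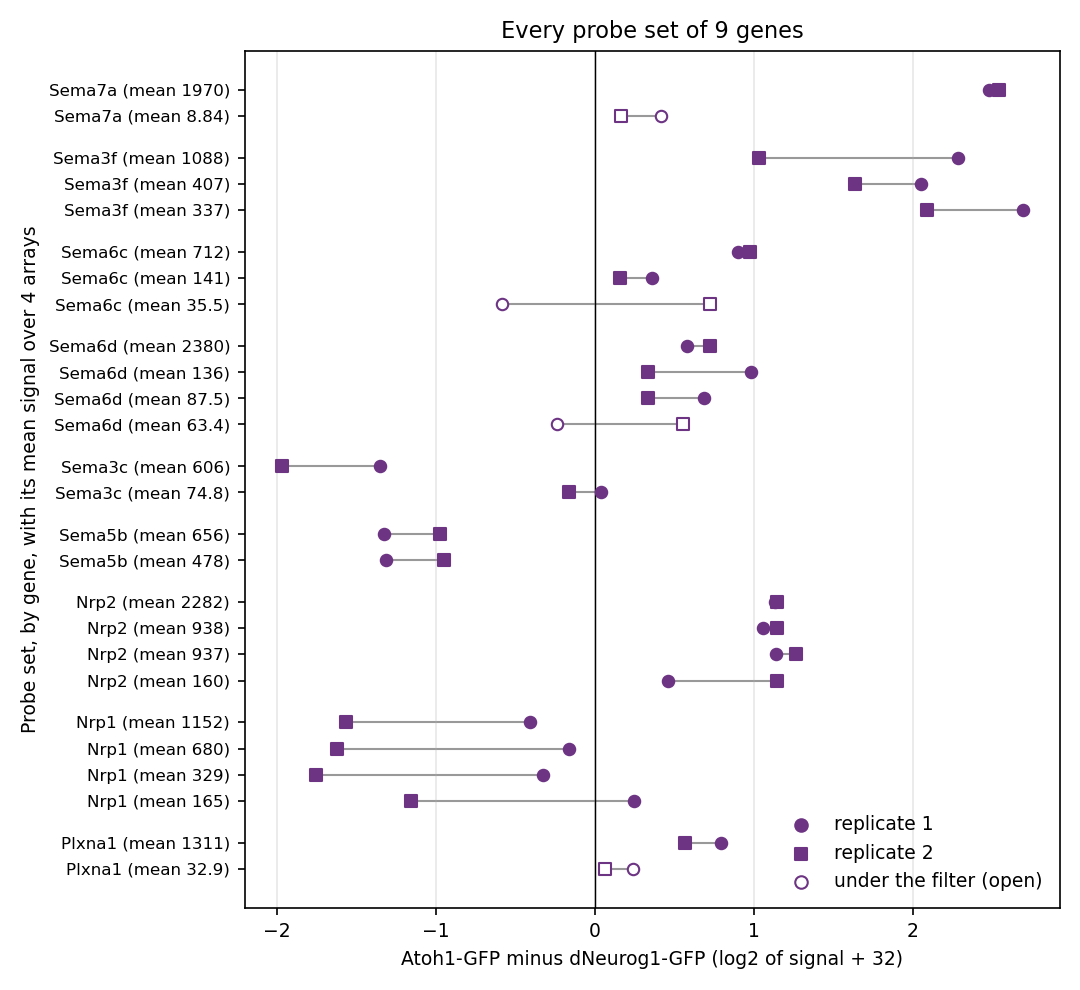
Difference between the populations for every probe set of 9 genes, with dNeurog1-GFP subtracted from Atoh1-GFP on log2(signal + 32). Circles are replicate 1 and squares replicate 2, open symbols lie under the filter, and the mean signal over the 4 arrays stands beside each gene; the 4 Nrp2 and 3 Sema3f probe sets all lie above 0, the 2 Sema5b probe sets below it, and the Nrp1 probe sets spread from 0.25 to -1.75.

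The A plexins, the signalling partners of the neuropilins and the receptors of class 6 semaphorins, had differences from -0.41 to 0.68. Plxna1 (1428623_at) had signals of 1520 and 1716 on the Atoh1-GFP arrays against 862 and 1147 on the dNeurog1-GFP arrays, with no overlap. Its log2 difference was 0.68 (0.80 and 0.57 within the replicate numbers), with a standard error of 0.25 and a limma adjusted p of 0.47 without the block, and 0.13 and 0.038 with it. Plxna3 had 1428 and 1235 against 831 and 1024, a difference of 0.51 that did not pass (adjusted p = 0.13 with the block) except after quantile normalization with the block. Plxna2, known as a receptor of Sema6a, had 434 and 572 against 550 and 827 and overlapped between the populations. Its 4 probe sets did not all have 1 sign. Plxna4 had 154 and 87.8 against 142 and 74.8, where the replicate numbers were farther apart than the populations.

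The other plexins did not pass in either model on the common scale. Plxnb1, the Sema4d receptor, had 2130 and 2716 on the Atoh1-GFP arrays against 1530 and 1889 on the dNeurog1-GFP arrays, a difference of 0.49 (adjusted p = 0.71 without and 0.063 with the block). It passed with the block on signals as deposited (adjusted p = 0.041) and after quantile normalization (adjusted p = 0.010). Plxnb2 had 1243 and 1372 against 1566 and 1564, a difference of -0.26. Plxnb3 lay under the filter at 59.8 and 66.3 against 41.0 and 57.7. Plxnd1, a receptor known from vessels, had 334 and 208 against 101 and 195. Its difference of 0.77 was 1.46 within replicate 1 and 0.08 within replicate 2 (adjusted p = 0.27 with the block). Over receptors as a class, 0 of 10 passed without the block in limma and 2 with it. Of 19 ligands, 1 and 6 did, and the shares over all genes were 0.22% and 6.51%. An unadjusted p under 0.05 without the block was found for 3 receptors (30%) and 6 ligands (31.6%), against 8.59% of all genes.

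Class by class, the median difference was 0.23 for the 19 ligands (0.35 within replicate 1 and -0.20 within replicate 2) and 0.33 for the 10 receptors (0.31 and 0.17). Over all genes tested it was 0.01. The ligand median thus changed sign between the replicate numbers. All 10 receptors had the same sign within both replicate numbers, 7 higher and 3 lower in the Atoh1-GFP population, and 15 of 19 ligands did (9 and 6). The corresponding share over all genes was 67.0%, with 33.3% higher and 33.7% lower.

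**Figure D3:**
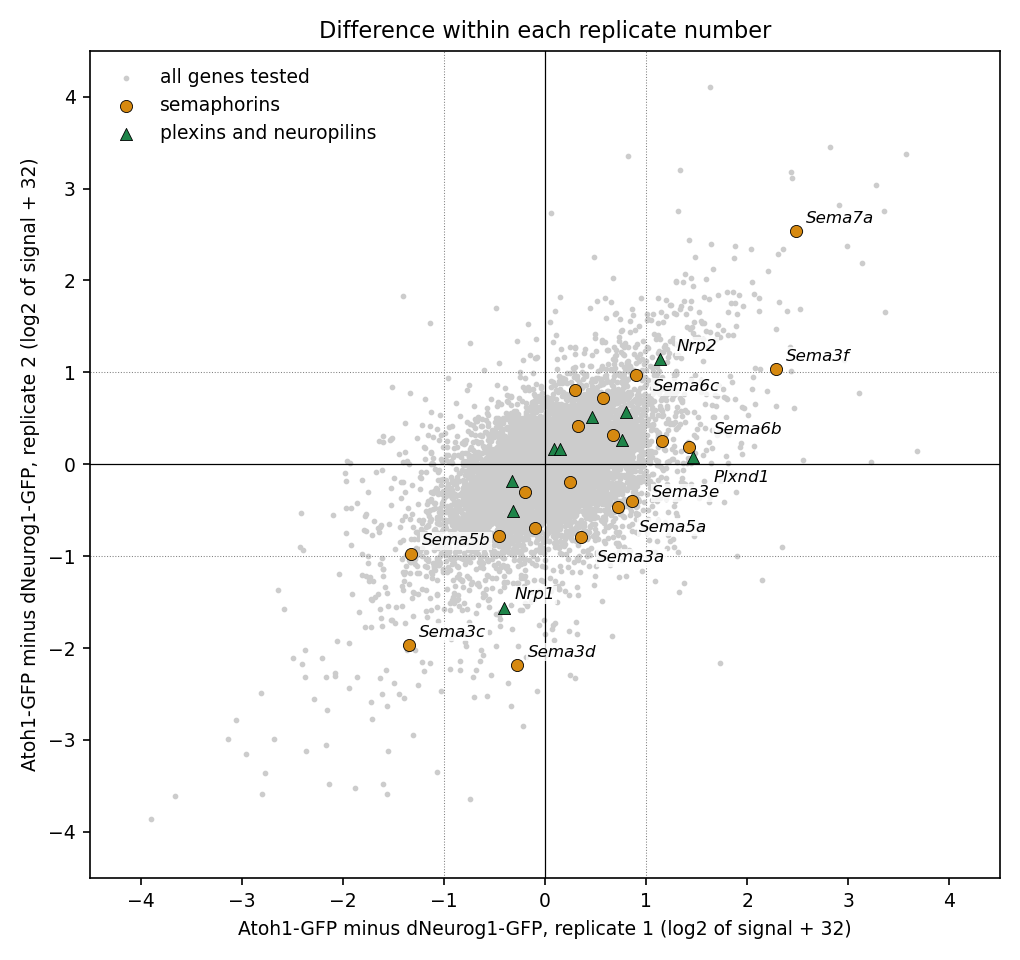
Difference between the populations within replicate 1 (horizontal) and within replicate 2 (vertical), both with dNeurog1-GFP subtracted from Atoh1-GFP on log2(signal + 32). Grey points are all 12740 genes tested, orange circles the 19 semaphorins and green triangles the 10 plexins and neuropilins, and dotted lines mark a 2-fold difference; Sema7a lies at 2.48 and 2.54, Sema3d at -0.27 and -2.18 and Plxnd1 at 1.46 and 0.08.

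Members of the family and summed markers of other cells are set side by side here by the array on which each was highest. Each gene is highest on 1 of the 4 arrays, so a shared highest array alone ties no gene to a cell type. The share of all genes that were highest on each array was not computed. Of 11 listed markers of motor neurons and the ventral neural tube all were tested, and their summed signal was 1952 and 1365 on the Atoh1-GFP arrays against 3433 and 9071 on the dNeurog1-GFP arrays. The dNeurog1-GFP replicate 2 array was the highest in this sum and also in Nrp1, Plxna2, Sema3a, Sema3c, Sema3d, Sema3g, Sema4b, Sema4d, Sema4f and Sema5a. The progenitor factor Olig2 had 3.82 and 7.44 against 73.6 and 443, and Isl1, a motor neuron and dI3 factor, 640 and 566 against 1946 and 5163, which makes Isl1 the largest part of the sum on that array. The block called 3 of the 11 lower, Olig2, Isl1 and Lhx4, and 0 higher, against 3.73% and 2.78% of all genes. The floor plate genes Shh and Foxa2 had positive differences, 0.69 each: Shh had 228 and 278 against 100.0 and 202, and Foxa2 123 and 56.2 against 28.3 and 55.7. Summed mesenchyme markers (8 of 8 tested) were 6305 and 4310 against 2957 and 6589, highest on the dNeurog1-GFP replicate 2 array. Col3a1, with 2089 and 1722 against 822 and 3362, was the largest part of the sum there. Only Col3a1 and Twist1 of this list were highest on that array. Col1a1, Col1a2, Prrx1, Pdgfra, Lum and Dcn were highest on the Atoh1-GFP replicate 1 array. Summed endothelial markers (7 of 8 tested) were 1987 and 978 against 820 and 749, highest on the Atoh1-GFP replicate 1 array, where Plxna3, Plxna4, Plxnc1, Plxnd1, Sema3e, Sema3f, Sema4a and Sema6a were also highest. That array also had the highest median over all probe sets, 138. Summed heart muscle markers (5 of 5 tested) were 1636 and 3426 against 420.0 and 1890, with a median difference of 1.22, and the block called Myl7 higher and 0 lower. This sum was highest on the Atoh1-GFP replicate 2 array, as were Nrp2, Plxna1, Plxnb1, Plxnb3, Sema4c, Sema4g, Sema6b, Sema6c, Sema6d and Sema7a. Summed blood markers (2 of 6 tested, both embryonic globins) were 23884 and 25585 against 6562 and 18944, also highest there, and neither gene passed. Summed markers of neural crest and sensory ganglia (3 of 7 tested) were 2076 and 2680 against 1548 and 2595, and none passed. This sum was mostly Pou4f1, with 1557 and 2386 against 1281 and 2119. Sox10 had 218 and 116 against 142 and 101, and Erbb3 301 and 178 against 125 and 374. No listed marker that was tested had a signal of 0. The part of these cells in the differences was not tested.

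**Figure D4:**
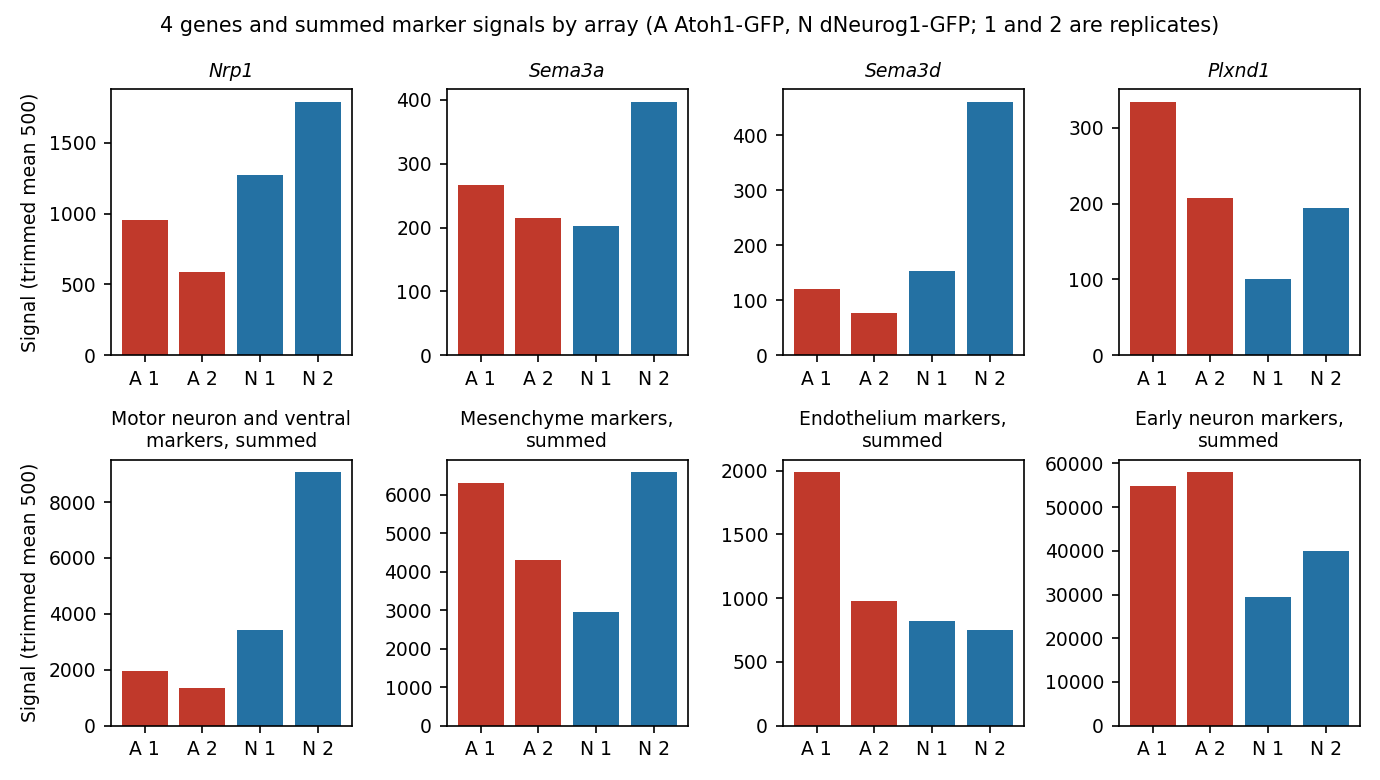
Signal of Nrp1, Sema3a, Sema3d and Plxnd1 (top) and summed signal of 4 marker lists (bottom) on each array, with every array at a trimmed mean of 500 and bars from 0. Red bars are Atoh1-GFP (A) and blue bars dNeurog1-GFP (N), replicates 1 and 2; Sema3d is 461 on the dNeurog1-GFP replicate 2 array, where the motor neuron and ventral sum is 9071.

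Markers of progenitors and of early neurons differed between the populations too. Over all genes the block called 2.78% higher and 3.73% lower in the Atoh1-GFP population. Of 8 early neuron markers it called 5 higher and 0 lower, with summed signals of 54810 and 58011 against 29460 and 40002. Of 10 progenitor markers it called 5 lower and 0 higher, with sums of 42105 and 32978 against 61373 and 43775. Those called were Sox1, Sox3, Sox21, Pax6 and Fabp7. Among the 5 not called, Nes had a positive difference (0.40), and Sox2 and Vim had small negative ones (-0.11 and -0.05). Hes5 and Slc1a3 differed by -0.65 and -0.78. Sema7a, Sema3f, Sema6c, Sema6d, Nrp2 and Plxna1 were higher in the Atoh1-GFP population, as the early neuron sum was. Sema5b and Sema3c were lower, as the progenitor sum was. Between 2 populations any called gene shares its direction with such a list. Within each population the progenitor sum was higher on the replicate 1 array, and Sema3c was higher on the replicate 2 array. Sema5b was higher on replicate 1 in dNeurog1-GFP cells (1023 and 814) and nearly level in Atoh1-GFP cells (390 and 399). The part of these shifts in the differences of the family was not tested.

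Other genes of the pathway were taken from lists of co-receptors, further neuropilin ligands and intracellular signal transduction. Of 14 co-receptors tested (of 19 listed), the block called 1 higher and 1 lower in the Atoh1-GFP population. Over all genes it called 2.78% higher and 3.73% lower. Cntn2, the axonal adhesion molecule also called TAG-1 and a partner in Sema3a responses, had 7826 and 8103 against 1775 and 2286. Its log2 difference was 1.97 with a standard error of 0.22 and a limma adjusted p of 0.035 without the block, and 0.13 and 0.0026 with it. Chl1, a close homologue of L1 that associates with Nrp1, had 357 and 285 against 823 and 1382. It was lower by a log2 difference of -1.65 (limma adjusted p = 0.12 without and 0.023 with the block). L1cam, an Nrp1 partner in Sema3a signalling, had 752 and 1158 against 524 and 2077 and overlapped between the populations.

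Of 37 signal transduction genes tested (of 39 listed), 4 were higher with the block and 0 lower, against 2.78% of all genes higher and 3.73% lower. Without the block 0 passed in limma, with 5 at an unadjusted p under 0.05. Rnd2, a small GTPase of migrating neurons, had 13092 and 11322 against 5948 and 4387, which differed by 1.25 on the log2 scale (adjusted p = 0.097 without and 0.0066 with the block). Cdk5r1, the p35 activator of the kinase Cdk5, had 2264 and 2632 against 1065 and 1381, a difference of 0.99 (adjusted p = 0.011 with the block). Pak3, a kinase downstream of Rac, differed by 0.83 and Dpysl4, of the collapsin response mediator family, by 0.82 (adjusted p = 0.026 and 0.036 with the block). Crmp1, of the same family, had 7691 and 7532 against 4262 and 5530 and just missed the threshold (adjusted p = 0.051 with the block). Dpysl2, the family member first tied to Sema3a collapse, had 17398 and 18709 against 15460 and 13940, a difference of 0.30 (adjusted p = 0.26 with the block). Rnd1, Rras2 and Farp1 had the most negative differences of this list, -0.67, -0.53 and -0.47, and none passed. None of the 4 further neuropilin ligands passed in limma in either model, with 1 at an unadjusted p under 0.05 without the block: Vegfb had 239 and 286 against 481 and 503 (adjusted p = 0.055 with the block).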

How the data were processed

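The deposited intensity of each probe set is a linear MAS5 signal, with MAS5 named by the submitters' processing notes without a version or target. The algorithm summarises a probe set's probes and applies 1 constant per array. All 4 arrays were therefore brought to a trimmed mean (2% left out at each end) of 500. Of 45101 probe sets, 64 controls were left out, and 27022 with a mean signal at or above the 40th percentile (63.5) were kept. Of the non-control probe sets 34945 had 1 gene symbol, 932 several and 9160 none. Each gene was read by its brightest kept probe set with 1 symbol, which gave 12740 genes. Differences on log2(signal + 32) were tested with limma 3.58.1 (lmFit, eBayes with an intensity trend) in R 4.3.3, with Benjamini-Hochberg adjustment over all genes and a threshold of 0.05, without a block and with a block for replicate number. These models have 2 and 1 residual degrees of freedom, so p-values rest largely on the spread shared across genes. The number of arrays limits the precision, and no detection calls were used.

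Promoter sequences came from RefSeq (GRCm38.p6), and 26 of the 31 genes had a window. The family and the lists were chosen with earlier results of these data known. Genes named were all members, with values on every array for those that passed or whose probe sets disagree. Also named were the pathway genes that passed, those with the largest differences, and markers set beside the members by array. Alternatives covered scaling, pseudocount, filter, variance model, choice of probe set, the replicate block and leaving out each array.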

Additional observations from a re-analysis of the deposited data

How the results depend on the processing

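In limma, 28 genes passed over all genes, 1 of the family and 1 of the pathway lists. With the replicate block these counts were 829, 8 and 6; with signals as deposited 13, 0 and 0; with both 1169, 10 and 9; and after quantile normalization with the block 1726, 12 and 11. Scaling to one 75th percentile gave 18 and 0 for all genes and the pathway, no filter 14 and 0, and the mean of all kept probe sets 14 and 0. A filter at the 60th percentile gave 18 over all genes. With no intensity trend all 3 counts were 0. An unadjusted limma p under 0.05 was then found for 978 genes (7.68%), 9 of the family (31%) and 7 of the pathway (12.7%). On signals as deposited without the block it was found for 241 genes (1.89%), 2 of the family (6.67%) and 1 of the pathway (1.79%). Leaving out 1 array gave 153 to 380 genes, 2 to 5 of the family and 2 to 4 of the pathway; the remaining lone array is assumed to vary like the others. The family gained Nrp1, Nrp2, Sema3c and Sema3f without Atoh1-GFP replicate 1, Sema3c and Sema3f without Atoh1-GFP replicate 2, Sema3c without dNeurog1-GFP replicate 1, and Nrp2 and Sema3f without dNeurog1-GFP replicate 2. The split of calls was 16 higher and 12 lower, 354 and 475 with the block, 1 and 12 as deposited, 7 and 11 at the 75th percentile and 17 and 9 after quantile normalization. The 4 genes at least 2-fold different within both replicate numbers on log2(signal + 32) became 2 with the mean of all kept probe sets. They became 5 when 16 was added to the signals in place of 32. The receptor median of 0.33 became 0.18 on signals as deposited, with or without the block, and 0.49 with the filter at the 60th percentile. The ligand median of 0.23 became 0.14 after quantile normalization and 0.37 with that filter, and on leaving out 1 array it ran from -8.97e-04 (without dNeurog1-GFP replicate 1) to 0.41 (without dNeurog1-GFP replicate 2). Of 239 values of 15 followed genes under 16 other settings, 237 kept their direction. The exceptions came from leaving out 1 array, where Sema6b ran from -8.97e-04 (without dNeurog1-GFP replicate 1) to 1.62 and Sema3a from -0.66 to 0.22 (without dNeurog1-GFP replicate 2). Sema7a kept a log2 difference between 2.37 and 2.65. The causes were not tested.

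Over 12740 genes, the deviations of same-numbered arrays from their group means correlated at Pearson's r = 0.66, across genes, which are not independent replicates. With 2 arrays a group, no label ties equal numbers together, and the shared scaling target is what they are known to have in common. The arrays were brought to 1 trimmed mean before this correlation and the reported block fit. The block therefore takes up differences that remained after that step. The median over all probe sets, for example, was then 138 and 115 on the replicate 1 arrays against 76.0 and 75.4 on the replicate 2 arrays. The source of the remaining differences was not tested. Dim signals limit what the arrays show of Sema3b, Plxnb3, Sema3e, Sema5a and Plxna4.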
